A study of Drosophila melanogaster with 29 samples.

Results

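The genes described here encode the core machinery that fuses synaptic vesicles with the plasma membrane: the SNARE proteins, their partners *Rop* and *comt*, the synaptotagmins *Syt1*, *Syt4* and *Syt7*, the complexin *cpx* and the synapsin *Syn*. They were chosen by name, with earlier results of these data known, and all 10 had a row among the 7602 genes of the authors' table. The values come from 3 replicate libraries of nuclear RNA from *Drosophila melanogaster* photoreceptors, out of 29 samples in the series; the 26 chromatin samples were not analysed here.

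All 3 RNA libraries form 1 group with 1 genotype. The flies were male, carried *w*, expressed UAS-GFP-Msp300KASH from the attP2 site, and also carried rh1-GAL4 on a *ry*-marked P element together with a mutant *ry* allele. They were kept in 12 hours of light and 12 hours of darkness at 25 °C and were 10 days old. The driver uses the promoter of the Rh1 rhodopsin gene, which is active in outer photoreceptors. The tagged nuclei were thus meant to stand for those cells and not for the whole retina, and their purity was not tested. Heads were taken from frozen flies, tagged nuclei were isolated, and libraries were made from 10 ng of RNA. There was no RNA from untagged nuclei or from another genotype, age or light condition. The levels below are therefore descriptions of 1 state, with the 3 libraries giving the error. The labels do not say whether the libraries came from separate groups of flies, so this error may be partly technical.

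Release works in steps. *nSyb* encodes the vesicle SNARE, and *Syx1A* and *Snap25* encode the plasma membrane SNAREs. These proteins zip together into a helical bundle that pulls the vesicle onto the membrane. *Rop*, the fly Munc18, binds the syntaxin and guides assembly. *cpx* binds the half-assembled bundle, restrains spontaneous fusion and promotes fusion on demand. *Syt1* is the vesicle calcium sensor that triggers synchronous release. *comt*, the NSF ATPase, takes used bundles apart, and *Syn* tethers vesicles in reserve clusters. Fly photoreceptors signal to the lamina by releasing histamine in a graded and continuous manner rather than by spikes.

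A normalized count here is the reads of a gene after scaling by the size factor the authors fitted to that library, and it does not allow for gene length. The libraries held between 3051440 and 3781302 reads assigned to genes, and 1 read was worth 1.29 to 1.49 normalized counts. Pearson's r between libraries across genes was 0.975 to 0.981 on the log2 scale. Levels of different genes are compared per kilobase of gene span, the distance from the first to the last annotated base in the RefSeq annotation of Release 6. This was the only length at hand. Nuclear RNA contains introns, and whether intron reads were counted is not given in the sources used here, so a level per kilobase of span may understate genes with long introns. In a bulk sample, fewer cells of a type and less RNA per cell cannot be told apart.

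The complexin gene *cpx* stood out at the top of the set. *cpx* (FBgn0041605; 3R, 4280221 to 4304604) had 39131, 34308 and 43760 normalized counts in replicates 1, 2 and 3, which rest on 30423, 22970 and 33102 reads. Replicate 3 was the highest and replicate 2 the lowest. Per kilobase of its 24.384 kb span this was 1602 ± 194 (SD, n = 3), position 23 of the 7531 genes with a span. For scale, the priming factor gene *unc-13* stood at 1199 ± 135 per kilobase and the phospholipase gene *norpA*, a central phototransduction enzyme, at 1661 ± 138. The difference between the means of *cpx* and *norpA* was smaller than either SD, and their paired difference within libraries is not given here. Without division by length *unc-13* was above *cpx*, with mean normalized counts of 53367 and 39066. RefSeq lists 21 transcripts for *cpx*, and the table does not separate them.

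Among the calcium sensors, *Syt1* (FBgn0004242; 2L, 2772327 to 2799979) had 21224, 19128 and 22273 normalized counts in replicates 1, 2 and 3. That is 755 ± 57.9 per kilobase (SD, n = 3), position 65 of the genes with a span. *Syt4* (FBgn0028400; 3R, 7266065 to 7270809), whose product is known from postsynaptic vesicles at the fly neuromuscular junction, had 872, 733 and 907 normalized counts, or 176 ± 19.3 per kilobase. *Syt7* (FBgn0039900; 4, 278685 to 306481), a synaptotagmin not carried by synaptic vesicles in flies, had 1399, 1337 and 1818 normalized counts, or 54.6 ± 9.41 per kilobase. In every library the order per kilobase was *Syt1*, then *Syt4*, then *Syt7*.

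The vesicle SNARE and the syntaxin were close to each other. *nSyb* (FBgn0013342; 3L, 1630348 to 1637752) had 5001, 4366 and 5205 normalized counts in replicates 1, 2 and 3, and *Syx1A* (FBgn0013343; 3R, 24101600 to 24105763) had 2539, 2317 and 2854. Per kilobase of span they stood at 656 ± 59.1 and 617 ± 64.9 (SD, n = 3). *nSyb* was higher in 3 of 3 libraries, by 0.09 ± 0.06 on the log2 scale, which is within 2 SD. These levels could not be ranked beyond their spread.

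*Snap25* (FBgn0011288; 3L, 24074180 to 24299205) was the member whose place depended most on length. It had 1570, 1461 and 1986 normalized counts in replicates 1, 2 and 3, spread over a span of 225.026 kb, the longest of the 10. Per kilobase of span it stood at 7.43 ± 1.23 (SD, n = 3), the lowest member and below the median of 19.6 for all genes with a span. Without division by length it was sixth of the 10 members and at percentile 93.8 of the table. Its low level per kilobase is therefore tied to the choice of span as the length.

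The SNARE partners were lower. *Rop* (FBgn0004574; 3L, 4136359 to 4138996) had 134, 125 and 147 normalized counts in replicates 1, 2 and 3, from 104, 84 and 111 reads. *comt* (FBgn0000346; X, 13259021 to 13262488) had 299.7, 303.2 and 292.2, from 233, 203 and 221 reads. Both genes are short, with spans of 2.638 and 3.468 kb. Per kilobase, *Rop* stood at 51.3 ± 4.07 and *comt* at 86.0 ± 1.63 (SD, n = 3), which placed them at percentiles 76.6 and 86.4 of genes with a span. The level of *cpx* per kilobase was 31.2 times that of *Rop*.

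*Syn* (FBgn0004575; 3R, 10190689 to 10222442), the only synapsin gene of the fly, had 14893, 13548 and 15706 normalized counts in replicates 1, 2 and 3. Per kilobase of its 31.754 kb span this was 463 ± 34.3 (SD, n = 3), at percentile 98.5. It lay below *Syx1A* per kilobase in 3 of 3 libraries, by 0.41 ± 0.05 on the log2 scale.

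**Figure D1:**
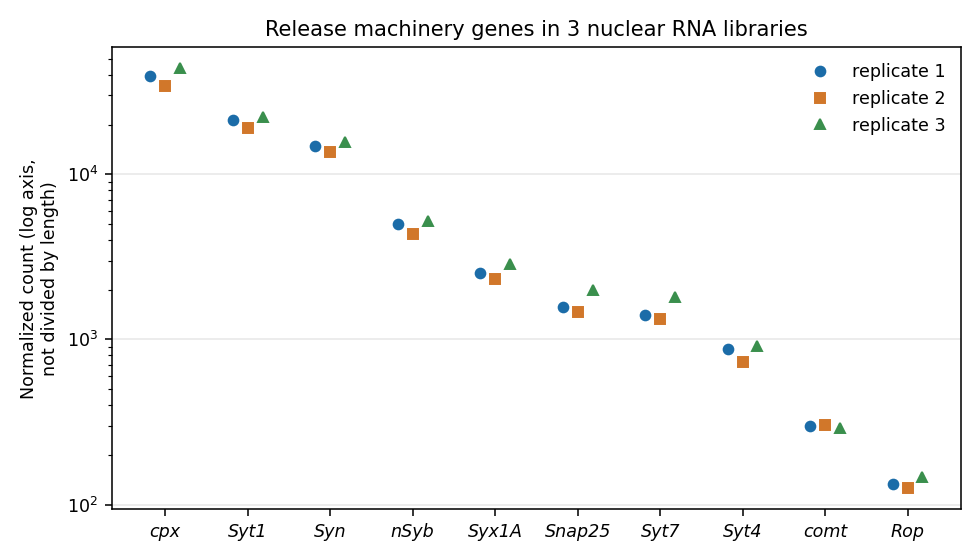
Normalized counts of the 10 release machinery genes in each of the 3 nuclear RNA libraries, on a log axis and not divided by length. Points are single libraries; *cpx* is highest with 34308 to 43760 and *Rop* lowest with 125 to 147, and under the authors' scaling replicate 2 is the lowest library for every gene except *comt*.

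Ordered per kilobase of span, the members ran *cpx*, *Syt1*, *nSyb*, *Syx1A*, *Syn*, *Syt4*, *comt*, *Syt7*, *Rop* and *Snap25*. The highest and the lowest differed 216-fold, and 31.2-fold when *Snap25* was set aside. Neighbours were counted as different when the difference had the same sign in 3 of 3 libraries and its mean was over 2 SD. By that rule 7 of the 9 neighbouring pairs differed, and *nSyb* with *Syx1A* and *Syt7* with *Rop* did not. *Syt7* and *Rop* changed places between libraries, with a mean difference of 0.08 ± 0.13 on the log2 scale. The gap from *cpx* to *Syt1* was 1.08 ± 0.07 (2.12-fold), and that from *Syn* to *Syt4* was 1.40 ± 0.06 (2.63-fold). Steps of similar or larger size lay lower in the order, 1.03 ± 0.19 from *Syt4* to *comt* and 2.80 ± 0.12 from *Rop* to *Snap25*. The steps below *cpx* and *Syn* set apart *cpx*, then *Syt1*, *nSyb*, *Syx1A* and *Syn* between 463 and 755 per kilobase. The rest, at 176 and below, was itself split by the lower steps.

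**Figure D2:**
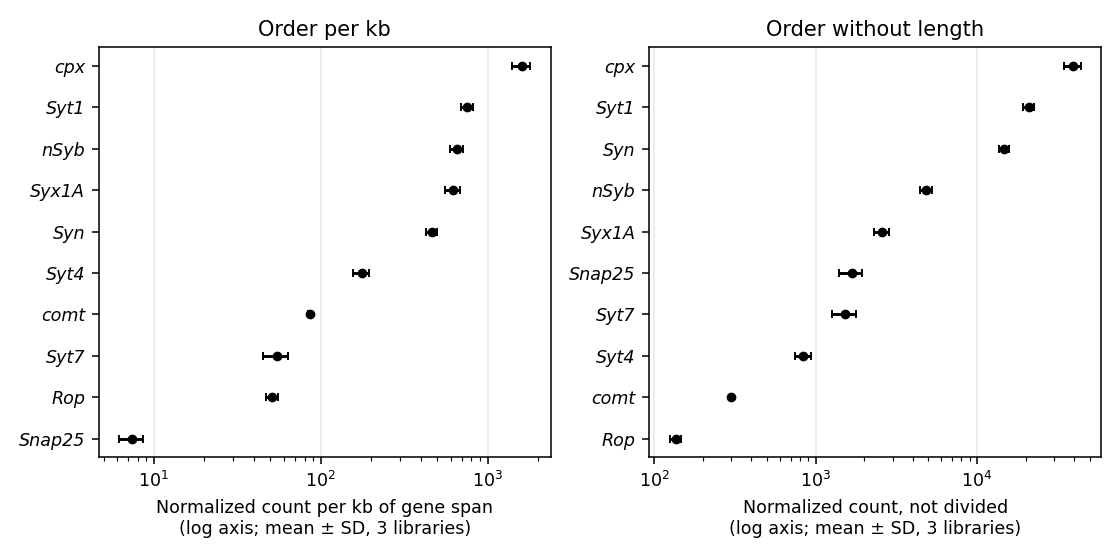
Mean normalized count of each member with SD over 3 libraries, per kilobase of gene span (left) and not divided by length (right), both on log axes. *cpx* and *Syt1* hold the first and second place on both scales, while *Snap25* goes from sixth on the right to last on the left.

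Without division by length 2 members, *cpx* and *Syt1*, kept their position. All 9 neighbouring pairs then differed beyond their spread, and the order ran *cpx*, *Syt1*, *Syn*, *nSyb*, *Syx1A*, *Snap25*, *Syt7*, *Syt4*, *comt* and *Rop* in each library.

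As a group the members, which were chosen with earlier results of these data known, were high in the table. On the log2 scale their median was 11.01, against 5.83 for all 7602 genes, a difference of 5.18. By level, 7 of 10 were among the highest 10% of genes, where 10.0% of all genes are by construction, and 3 were among the highest 1%, which holds 1.01% of all genes. Per kilobase of span the median of the members was 320 against 19.6 for all genes with a span. On that scale 6 members were among the highest 10%, 2 among the highest 1% (again 1.01% of genes), and 9 above the median, with *Snap25* below it. Together the members held 1.80% ± 0.10 of normalized counts (SD, n = 3), of which *cpx*, *Syt1* and *Syn* made up 86.3% ± 0.17. The members' median span was 15.9 kb against 3.49 kb for the table, so this share includes the effect of length.

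*nSyb*, *Syx1A*, *Snap25*, *comt*, *Rop* and *Syt1* were next set against relatives of their own families. *nSyb* exceeded *Syb*, the broadly expressed fly synaptobrevin, which had 12.9, 14.9 and 35.7 normalized counts in replicates 1, 2 and 3. Per kilobase the log2 ratio was 6.68 ± 0.73 (SD, n = 3), a 103-fold difference, and it was lowest in replicate 3. *Syx1A* exceeded *Syx4*, another plasma membrane syntaxin, by 2.02 ± 0.10 per kilobase, or 4.06-fold. *Syx4* itself stood at 152 ± 8.31 per kilobase and was the highest of the other SNARE genes.

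*comt* exceeded *Nsf2*, the second NSF gene of the fly, by 1.73 ± 0.28 on the log2 scale per kilobase (3.32-fold; SD, n = 3). *Rop* exceeded *Slh*, the fly Sly1 that works between endoplasmic reticulum and Golgi, by 0.81 ± 0.09 per kilobase (1.76-fold). Without division by length *Rop* and *Slh* were at 135 ± 10.7 and 131 ± 15.1 normalized counts and could not be told apart beyond their spread. The direction of *Snap25* against *Snap24*, a second gene of the SNAP-25 family, depended on length. *Snap25* was below *Snap24* by 2.70 ± 0.13 per kilobase of span (log2 ratio of -2.70) and above it by 4.23 ± 0.13 without division by length. The span of *Snap25* is 122 times that of *Snap24*, which had 86.2, 83.6 and 95.2 normalized counts.

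*Syt1* dominated the 7 synaptotagmin genes on both scales. It held 89.6% ± 0.66 of the normalized counts of the 7 synaptotagmin genes, and 76.0% ± 0.63 of their sum per kilobase (SD, n = 3). *Syt4* held 17.7% ± 0.55 and *Syt7* 5.48% ± 0.58 of the sum per kilobase. Without division by length their order was reversed, with *Syt4* at 3.59% ± 0.13 and *Syt7* at 6.49% ± 0.68. The log2 ratio of *Syt1* per kilobase was 2.10 ± 0.05 to *Syt4* and 3.80 ± 0.16 to *Syt7*. *Syt12*, *Syt14*, *Sytalpha* and *Sytbeta* were low, with 58, 51 and 56 reads in all in replicates 1, 2 and 3. In the same family *btsz*, which encodes a synaptotagmin-like protein, stood at 47.5 ± 0.88 per kilobase and *Esyt2*, an extended synaptotagmin, at 3.66 ± 0.93. The mean levels of the 4 low genes ran from 0.353 (*Sytbeta*) to 3.44 (*Syt14*) per kilobase. Ratios of *Syt1* to these 4 genes rest on few reads and ran from 7.83 ± 0.55 (*Syt14*) to 11.12 ± 0.51 (*Sytbeta*) on the log2 scale per kilobase.

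**Figure D3:**
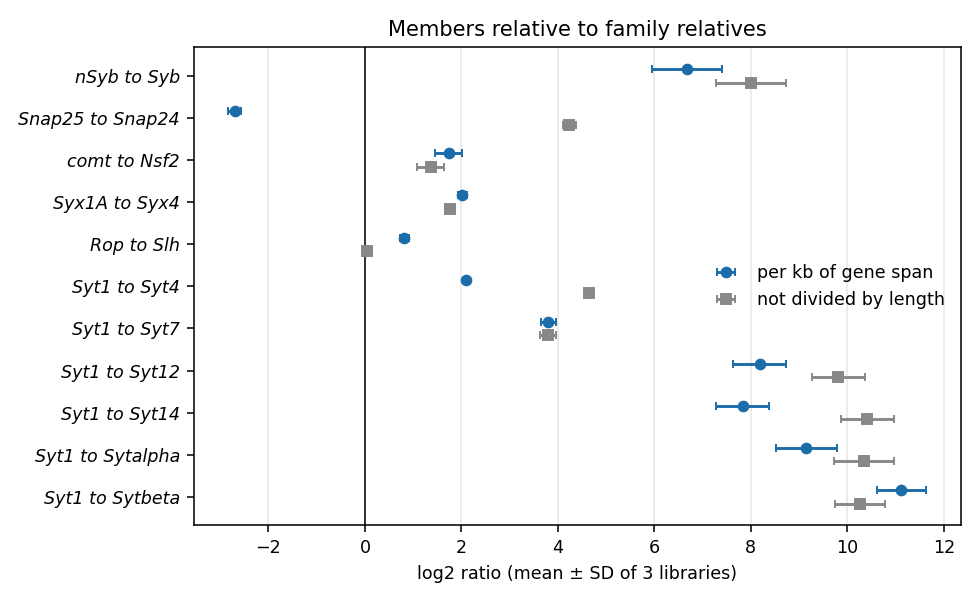
The log2 ratio of each member to a relative of its family, as mean ± SD of 3 libraries, per kilobase of gene span (circles) and not divided by length (squares). Mean ratios lie above 0 on both scales except *Snap25* to *Snap24*, which is -2.70 per kilobase and 4.23 undivided. *Rop* to *Slh* is 0.81 per kilobase, and its 0.05 undivided is smaller than its SD of 0.09.

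The rest of the release and fusion pathway was described from lists of related genes. All 21 other SNARE genes, most of which serve internal membranes such as the endoplasmic reticulum, Golgi and endosomes, had a row. Without division by length none was among the highest 10% of the table, 8 were above its median, and they ran from 14.1 to 757 normalized counts. Per kilobase 2 were among the highest 10%, *Syx4* and *Syx7*, the latter at 122 ± 18.9 (SD, n = 3). Their median per kilobase was 29.7, against 320 for the members and 19.6 for all genes with a span. Of the 4 other SM genes, whose products are relatives of Munc18, the endosomal *Vps45* was highest at 96.7 ± 6.19 per kilobase (SD, n = 3) and *Vps33B* lowest at 11.4 ± 0.73. Thus *Vps45* exceeded *Rop* per kilobase. Of the NSF adaptors, *alphaSnap*, which docks NSF onto SNARE bundles, stood at 65.1 ± 12.98 per kilobase and *gammaSnap2* at 20.0 ± 2.06.

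Genes for priming and docking, the steps that ready a vesicle for fusion, reached the members' range. Their median per kilobase was 215, and 6 of 8 were among the highest 10% per kilobase. This comparison depended on length. Without division by length the median of the members was 2121 normalized counts, and that of the priming and docking genes was 5017. *unc-13* was the highest of them, and *Rim*, an active zone organizer, stood at 409 ± 21.7 and *Cadps* at 354 ± 43.0 per kilobase (SD, n = 3). *Tomosyn*, whose product competes with synaptobrevin for the plasma membrane SNAREs, stood at 139 ± 5.92. *Rab27* was the lowest, with 3, 2 and 4 reads in replicates 1, 2 and 3.

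Of 22 genes for vesicle proteins and vesicle recycling, 20 had a row, and *stnA* and *stnB*, which share 1 span, had none. Their median per kilobase was 127, and 11 were among the highest 10% per kilobase. *shi*, the fly dynamin, was the highest at 558 ± 24.1 per kilobase and *EndoA*, the fly endophilin, followed at 488 ± 23.9 (SD, n = 3). *Clc*, the clathrin light chain gene, was the lowest at 9.02 ± 2.19, while the heavy chain gene *Chc* stood at 133 ± 6.21. *Csp*, which encodes a vesicle chaperone that protects SNAP-25, was at 176 ± 5.69.

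**Figure D4:**
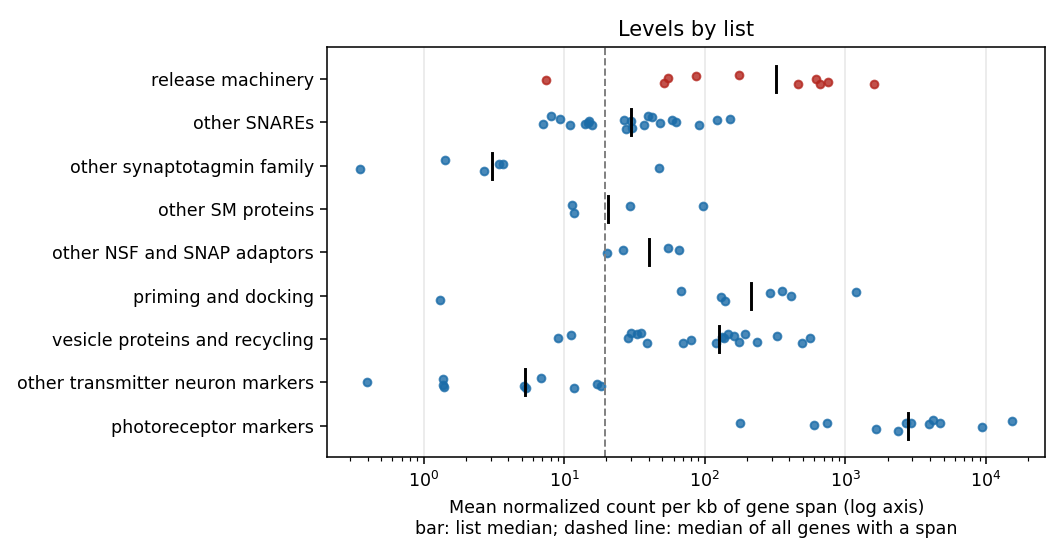
Mean normalized count per kilobase of gene span for each gene of 9 lists, on a log axis, with a bar at each list's median and a dashed line at 19.6, the median of all genes with a span. The release machinery median of 320 and the priming and docking median of 215 lie right of the line, the other SNARE median of 29.7 lies close to it, and markers of other transmitter neurons lie left of it at 5.25.

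Every neuron uses these genes, so markers of neurons that the driver does not label bear on their levels. Of 11 such markers, which cover acetylcholine, glutamate, GABA and monoamine neurons, 10 had a row and *Tdc2* had none. No gene with a row was at 0 in any library. Their summed normalized counts were 767, 687 and 800 in replicates 1, 2 and 3, against 87063, 77626 and 94947 for the 10 release genes. The highest of them was *VGlut*, the vesicular glutamate transporter gene, with 180.1, 176.2 and 178.5 normalized counts. The 12 photoreceptor markers all had a row, all were among the highest 10%, and summed to between 299029 and 315304. The 7 pan-neuronal markers were all above the table median and summed to between 62944 and 68543. The 8 glial markers summed to between 547 and 615. The 6 genes listed as cone and pigment cell markers summed to between 2049 and 2107, most of it from *dve*, with a mean of 1558. Whether *dve* is confined to those cells was not tested, so this sum does not measure them. Per kilobase the highest gene of this list was *Pdh*, at 236, which was among the highest 10% of genes with a span. The part of cone and pigment cells in the sample was not tested. The 5 muscle markers with a row summed to between 333 and 349.9, and the 4 fat body and blood cell markers with a row to between 323 and 369. None of these genes was at 0 in any library. The part of other neurons in the release gene levels was not tested.

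The 3 libraries differed in the members by more than counting error. Reads of each gene were tested against the size factors by a chi-square test over the whole table, with Benjamini-Hochberg adjustment over 6903 genes and a threshold of 0.05. It called 8 of the 10 members, where 9.76% of all tested genes were called. Calls depend on depth, and the share was 94.9% for genes whose mean reached 10000, 43.2% from 1000 to 10000, 14.4% from 200 to 1000 and 3.12% from 50 to 200. All 3 members whose mean reached 10000 were called, as were the 4 between 1000 and 10000, namely *nSyb*, *Syx1A*, *Snap25* and *Syt7*. *Syt4* was also called (adjusted p 0.0132), and *comt* and *Rop* were not (adjusted p 0.977 and 0.800). *Syt4* was not called when libraries were scaled to equal totals (adjusted p 0.321). Without replicate 3 the calls were 4 of 10, for *cpx*, *Syt1*, *nSyb* and *Syn*, where 3.52% of all tested genes were called. Without replicate 2 they were 6, where 4.99% of tested genes were called, with *nSyb* and *Syt4* not called.

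Among the related lists the same test called 1 of 21 other SNARE genes (*Syb*, adjusted p 0.0401), 1 of 4 NSF and SNAP adaptor genes (*alphaSnap*, adjusted p 0.0485), 5 of 7 tested priming and docking genes and 3 of 20 recycling genes, where 9.76% of all tested genes were called. The priming and docking genes are deeply read, with a median of 5017 normalized counts, and the share called from 1000 to 10000 was 43.2%. It called 0 of 4 other SM genes and 0 of 6 other genes of the synaptotagmin family, and in both lists 0 genes had an unadjusted p under 0.05.

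The differences were modest in size. The highest library exceeded the lowest by a ratio that ran from 1.04 (*comt*) and 1.16 (*Syn*) to 1.36 (*Syt7* and *Snap25*), with 1.28 for *cpx*. After subtracting counting error the spread of the 7 members whose mean reached 1000 had a median coefficient of variation of 10.3%, from 7.34% (*Syn*) to 17.0% (*Syt7*). The median over all 729 genes at that depth was 4.62%. With libraries scaled to equal totals the same medians were 5.91% and 4.20%. *comt* and *Rop* varied by 1.89% and 7.92% between libraries, less than the 6.77% and 10.1% that counting error alone gives for their reads.

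Most members shared a library order under the authors' scaling. *comt* was the exception, and the other 9 were lowest in replicate 2 and highest in replicate 3. That order was found for 23.5% of the 6903 tested genes and for 46.2% of the 729 genes whose mean reached 1000. With libraries scaled to equal totals it held for 7 members, not for *Syt7*, *Rop* and *comt*, against 14.4% of tested genes and 24.6% of the deeper genes. With trimmed mean scaling it held for 9 members, against 21.5% and 41.2%. The log2 ratio of replicate 3 to replicate 2 had a median of 0.28 over the members and 0.03 over the tested genes. With equal totals these medians were 0.15 and -0.10. Under the authors' scaling, sums over several related lists were also lowest in replicate 2 and highest in replicate 3. These lists were priming and docking, recycling, other SNARE, other SM, and NSF and SNAP adaptor genes. Singly this held for 3 of 8, 6 of 20, 5 of 21, 1 of 4 and 2 of 4 genes of these lists. As a share of each library's normalized counts, only priming and docking and recycling genes kept the order. By share, other SNARE genes were highest in replicate 1 (0.0449%, 0.0443% and 0.0448% in replicates 1, 2 and 3). Other SM and adaptor genes were then lowest in replicate 1. The sum of the other synaptotagmin family did not have this order. The summed markers of other transmitter neurons had it, though singly 2 of 10 did. The pan-neuronal markers summed to 68543, 62944 and 66956 in replicates 1, 2 and 3, and 3 of 7 had the order singly. The photoreceptor markers summed to 315304, 299029 and 313522, and 3 of 12 had it. Under the authors' scaling both of these sums were lowest in replicate 2 and highest in replicate 1. As a share of each library's normalized counts, the members held 1.79%, 1.70% and 1.91% in replicates 1, 2 and 3. The photoreceptor markers held 6.48%, 6.56% and 6.29%, and the pan-neuronal markers 1.41%, 1.38% and 1.34%. Both marker shares were thus lowest in replicate 3. The part of these cell types in the order was not tested.

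Gene span also went with the library difference. Among genes whose mean reached 50, the median log2 ratio of replicate 3 to replicate 2 was 0.01 for 1881 genes under 5 kb, 0.06 for 1888 genes from 5 to 50 kb, and 0.13 for 234 genes of 50 kb and over. Across the 4003 genes Spearman's rho between span and ratio was 0.15, a weak relation across genes of the same libraries. *Snap25* and *Syt7* had the highest ratios of the members, each 0.44, followed by *cpx* at 0.35. *Syt1* and *Syn*, with spans of 27.653 and 31.754 kb against 27.797 kb for *Syt7*, stood lower, at 0.22 and 0.21. *nSyb*, with 7.405 kb, stood at 0.25. The short members *Syt4*, *Syx1A* and *Rop* stood at 0.31, 0.30 and 0.23, above the median of their span class, and the short *comt* at -0.05. The part of span in the members' order was not tested.

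**Figure D5:**
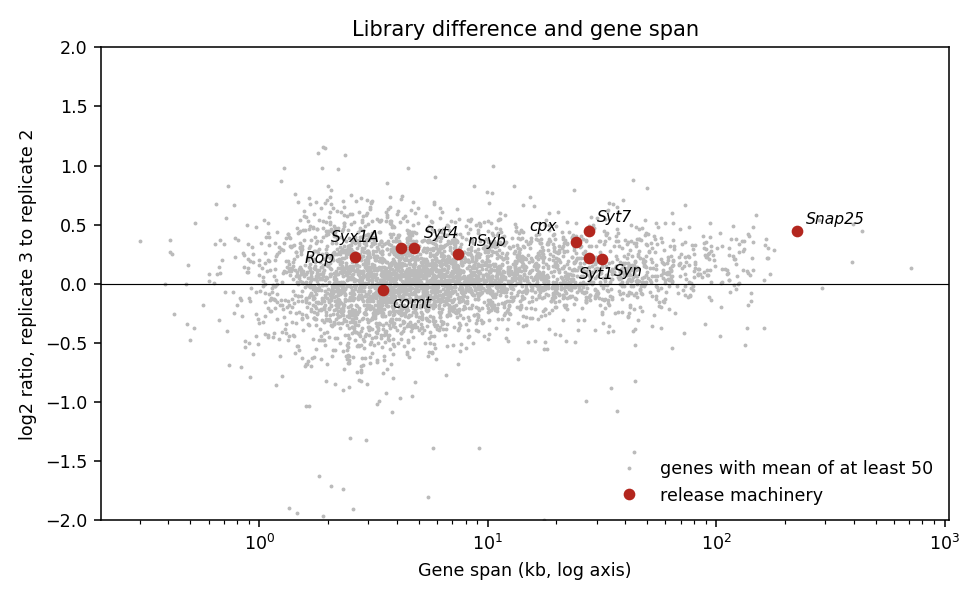
The log2 ratio of normalized counts in replicate 3 to replicate 2 against gene span on a log axis, for genes whose mean normalized count reached 50 (grey) and the 10 members (red); 12 genes lie outside the plotted range. The members lie between -0.05 (*comt*) and 0.44 (*Syt7* and *Snap25*), and 9 of 10 are above 0 under the authors' scaling.

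Other annotated genes overlap 5 of the 10 members, and the way reads were assigned there is not given in the sources used here. *Nepl11*, a neprilysin-like gene inside the span of *cpx*, had 148, 233 and 62.1 normalized counts in replicates 1, 2 and 3, and the mean of *cpx* was 265 times its mean. *Timp*, an inhibitor of metalloproteases inside the span of *Syn*, had 102, 142 and 54.2, and *Syn* was 148 times its mean. Both nested genes were highest in replicate 2 and lowest in replicate 3, the reverse of their hosts, and both were called (adjusted p 1.84e-14 and 2.14e-05). *Syx1A* lies inside the 45.884 kb span of *eIF4EHP*, which had 637 ± 90.3 normalized counts (SD, n = 3), and *Syx1A* was 4.03 times as high. *eIF4EHP* was also called (adjusted p 0.00262), and its 683, 533 and 695 normalized counts in replicates 1, 2 and 3 had the same library order as *Syx1A*. The values of *Syx1A* are uncertain for this reason. Small noncoding genes lie within *cpx*, *Syt1* and *Snap25* and had no row.

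The genes whose library profile was most like that of *cpx* were taken by the distance of log2 normalized counts, centred per gene over the 3 libraries, among 728 genes whose mean reached 1000. The nearest were *tau*, a microtubule-binding protein gene, at a distance of 0.006, *nuf*, an effector of Rab11, at 0.011, and *Sema1a*, an axon guidance semaphorin, at 0.013. *Syx1A* was the nearest member, at position 29 and a distance of 0.04. With 3 libraries such profiles have little room to differ, and 37 genes lay within 0.05.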

How the data were processed

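Nuclear RNA-seq of 3 libraries was analysed. The deposited values are log2(normalized count + 1), where the authors' count was divided by a DESeq2 size factor, per the file headers and the table's name; the base and the added 1 were inferred from whole-read steps. Whole reads were recovered within 0.001 for 100.0% of values. Trimmomatic, STAR and DESeq2 and the builds dm6 and BDGP6 are among those in the submitters' processing notes; the counting program, strandedness and gene filter are not given in the sources used here. The table had 0 sample columns that the labels do not name.

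Symbols matched 7553 of 7602 genes, and 7531 had a gene span in Release 6. Exon and coding lengths were planned as the main length but were not used here, so span took their place. Ratios and order are SD-based descriptions, since 3 libraries cannot give a two-sided sign-flip permutation p below 0.25. The chi-square test on reads used genes with a mean of at least 10, was tested on simulated data, and covers counting error only. Scripts ran in Python 3.11.15 with pandas 2.3.3, scipy 1.17.1 and, for figures, matplotlib 3.10.9. Genes named are the members, the listed genes at the ends of each list or related to a member, and the 3 genes nearest to *cpx*; other named genes were chosen after their values were seen. Members and lists were chosen with earlier results of these data known.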

Additional observations from a re-analysis of the deposited data

How the results depend on the processing

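Of the alternatives, the length mattered most. Without division by length the log2 ratio of *Snap25* to *Snap24* went from -2.70 to 4.23, that of *nSyb* to *Syb* to 7.99, *comt* to *Nsf2* to 1.36, *Syx1A* to *Syx4* to 1.76 and *Rop* to *Slh* to 0.052. For *Syt1* it went to 4.64 against *Syt4*, 9.81 against *Syt12*, 10.41 against *Syt14*, 10.34 against *Sytalpha* and 10.26 against *Sytbeta*. Neighbours that changed places were *Syx1A* and *Syn* (-2.52), *comt* and *Syt7* (-2.33) and *Rop* and *Snap25* (-3.62). These shifts follow from the spans by construction. The number of neighbouring pairs beyond their spread was between 6 and 8 when single replicates were dropped.

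Genes called between libraries numbered 674, with 448 at an adjusted p under 0.01, 625 with trimmed mean scaling, and 243 to 681 when single replicates were dropped (342 without replicate 2, 243 without replicate 3), where fewer libraries were compared. Members called ran from 4 to 8 in those settings. The members' median above the table was 5.18, with 4.86 when only genes whose mean reached 10 were used and 5.04 to 5.25 when single replicates were dropped, and their share of counts ran from 1.75% to 1.85%. The scaling and background alternatives for the library order, and the order without *Snap25*, were chosen after seeing the data. Among the ratios, depth limits those to *Syb* and the 4 lowest synaptotagmins most. No paired analysis was possible because the RNA libraries form 1 group.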
